A study of Homo sapiens with 6 samples.

Results

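mRNAs of the replication-dependent histone genes were compared in extracellular vesicles (EVs) of WT and CD47-deficient T cells. The genes were chosen by symbol, as H1-1 to H1-6 and the numbered H2AC, H2BC, H3C and H4C genes without pseudogenes. RefSeq holds 70 such protein-coding genes, of which 57 had a probe set listed with 1 gene symbol, among 18417 genes measured in all. They comprised 6 H1, 14 H2A, 16 H2B, 8 H3 and 13 H4 genes. The other 13 genes had only probe sets listed with several symbols. H4C14 and H4C15 had identical values on every array, so the 57 genes gave at most 56 separate measurements. Whether a probe set listed with 1 symbol also takes up signal from similar histone genes was not tested. Counts of genes below are thus not counts of independent results.
The WT EVs came from Jurkat cells (JK, genotype label CD47_WT), a human T cell leukemia line. The CD47- EVs came from JinB8 cells (CD47_mut), a somatic mutant of Jurkat that lacks CD47, so the absence of CD47 and any other difference of this line cannot be told apart. Each group held 3 EV preparations in HITES medium, a defined serum-free medium, after 24 to 48 h of culture, and 300 ng of RNA was labeled for each array. Either of 2 kits for EV isolation may have been used, and the labels do not say which preparation had which.
RNA was measured on whole-transcript human gene arrays, and all levels below are log2 RMA values. RMA gives all arrays nearly the same distribution, so a level is relative to the other RNAs of the preparation. A smaller number of EVs with an mRNA and less of it per EV cannot be told apart. Array medians lay between 5.08 and 5.14. Differences are CD47- minus WT on the log2 scale, tested with limma over all 18417 genes. A gene passed at a Benjamini-Hochberg adjusted p under 0.05, and n is 3 arrays per group throughout. The 361 olfactory receptor genes, whose transcripts belong to nasal sensory neurons, served as a rough gauge of background. Their means over all 6 arrays had a median of 5.49 and a 95th percentile of 6.79. Of 11 T cell marker genes, 8 lay above this median and 2 above the percentile. Markers of B, myeloid, erythroid and epithelial cells lay above the median for 2 of 4, 2 of 5, 2 of 2 and 3 of 5 genes, so this gauge does not separate the lineages well. The CD47 probe set had levels of 4.72, 4.69 and 4.72 in WT EVs and 4.58, 4.67 and 4.94 in CD47- EVs, and it does not check the labels.

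Histones package DNA into nucleosomes. H2A, H2B, H3 and H4 form the protein spool around which DNA is wound, and H1 binds the linker DNA between nucleosomes. The replication-dependent genes are expressed mainly in S phase, when new DNA must be packaged. They lack introns, lie in clusters as many near-identical copies, and their capped mRNAs end in a stem-loop in place of a poly(A) tail. The stem-loop is bound by SLBP, which acts in processing, translation and decay of these mRNAs.

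The promoters of the genes that passed are shown first because the classes of histone genes differ in them. H1-4, H1-5, H2AC21, H2BC14, H4C5 and H4C13 are printed with the 250 bases before the start of the gene, 5′ to 3′ on the strand of the gene, from RefSeq on GRCh38.p14. H3C11 and H4C3 also passed. Capitals mark matches, on either strand, to 5 elements. The TATA box, which helps to place the start of transcription, was searched as TATAAA. The CCAAT box, a site of general activators, was searched by the letters of its name. The octamer known from H2B promoters was searched as ATTTGCAT. The H1 box, known from H1 promoters, was searched as AAACACA. For the H4-specific element the letters searched were GGTCCG.
H1-4 (chr6:26156079-26156328, plus strand): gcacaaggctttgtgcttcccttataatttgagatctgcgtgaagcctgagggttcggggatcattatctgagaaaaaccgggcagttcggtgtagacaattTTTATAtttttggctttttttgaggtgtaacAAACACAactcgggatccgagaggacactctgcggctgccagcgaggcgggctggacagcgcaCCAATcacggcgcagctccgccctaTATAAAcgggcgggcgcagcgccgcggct
H1-5 (chr6:27867589-27867838, minus strand): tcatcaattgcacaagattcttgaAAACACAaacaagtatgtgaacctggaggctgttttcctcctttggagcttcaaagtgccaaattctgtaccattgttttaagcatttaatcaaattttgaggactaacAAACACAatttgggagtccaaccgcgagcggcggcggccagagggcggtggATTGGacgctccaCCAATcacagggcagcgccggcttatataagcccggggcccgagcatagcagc
H2AC21 (chr1:149887966-149888215, minus strand): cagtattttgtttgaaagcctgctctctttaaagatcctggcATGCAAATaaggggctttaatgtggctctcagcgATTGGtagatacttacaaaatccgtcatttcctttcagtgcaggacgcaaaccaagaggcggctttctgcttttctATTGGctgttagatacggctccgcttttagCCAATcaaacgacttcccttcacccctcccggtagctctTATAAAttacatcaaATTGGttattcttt
H2BC14 (chr6:27814772-27815021, plus strand): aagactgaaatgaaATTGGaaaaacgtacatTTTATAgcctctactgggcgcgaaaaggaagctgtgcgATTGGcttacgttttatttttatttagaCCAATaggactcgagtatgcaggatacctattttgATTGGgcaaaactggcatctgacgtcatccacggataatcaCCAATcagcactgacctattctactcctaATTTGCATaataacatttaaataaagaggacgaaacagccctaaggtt
H4C5 (chr6:26204360-26204609, plus strand): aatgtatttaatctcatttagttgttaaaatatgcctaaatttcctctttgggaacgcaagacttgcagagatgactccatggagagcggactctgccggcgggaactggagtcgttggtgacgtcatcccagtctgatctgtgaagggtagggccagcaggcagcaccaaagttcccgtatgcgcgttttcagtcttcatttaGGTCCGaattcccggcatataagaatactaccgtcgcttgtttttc
H4C13 (chr6:27873535-27873784, minus strand): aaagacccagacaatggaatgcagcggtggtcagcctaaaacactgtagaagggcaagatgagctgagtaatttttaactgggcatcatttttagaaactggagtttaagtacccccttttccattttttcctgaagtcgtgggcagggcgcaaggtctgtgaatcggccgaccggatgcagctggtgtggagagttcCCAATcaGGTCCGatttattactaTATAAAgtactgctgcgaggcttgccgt
In both H1 promoters an H1 box began 117 bases before the start. The H4 letters began 46 and 45 bases before the start of H4C5 and H4C13, and the octamer began 48 bases before the start of H2BC14.
The table of promoters held 52 of the 57 genes. The H1 box was found in 6 of 6 H1 promoters and in 0 of the promoters of the other classes, compared with 4.95% of 27305 promoters of all genes. The octamer was found in 13 of 16 H2B and 10 of 13 H2A promoters and in 1.66% of all promoters. H2A and H2B genes often lie head to head, so their windows can hold the same octamer. The H4 letters were found in 10 of 11 H4 promoters (9.33% of all). A CCAAT box was found in each of the 41 promoters of H1, H2A, H2B and H3 genes but in 3 of 11 H4 promoters (33.0% of all). The TATA box was found in 34 of the 52 (11.1% of all). A match describes letters and does not show a bound factor. These elements were not tested against the array values. Side by side, the median difference was 0.10 for 13 H2B genes with the octamer and 0.09 for 3 without it, and 0.17 for 10 H2A genes with it and 0.13 for 3 without. Among H4 genes it was 0.42 for 3 with a CCAAT box and 0.32 for 8 without, and 0.38 for 5 with a TATA box and 0.34 for 6 without.

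**Figure D1:**
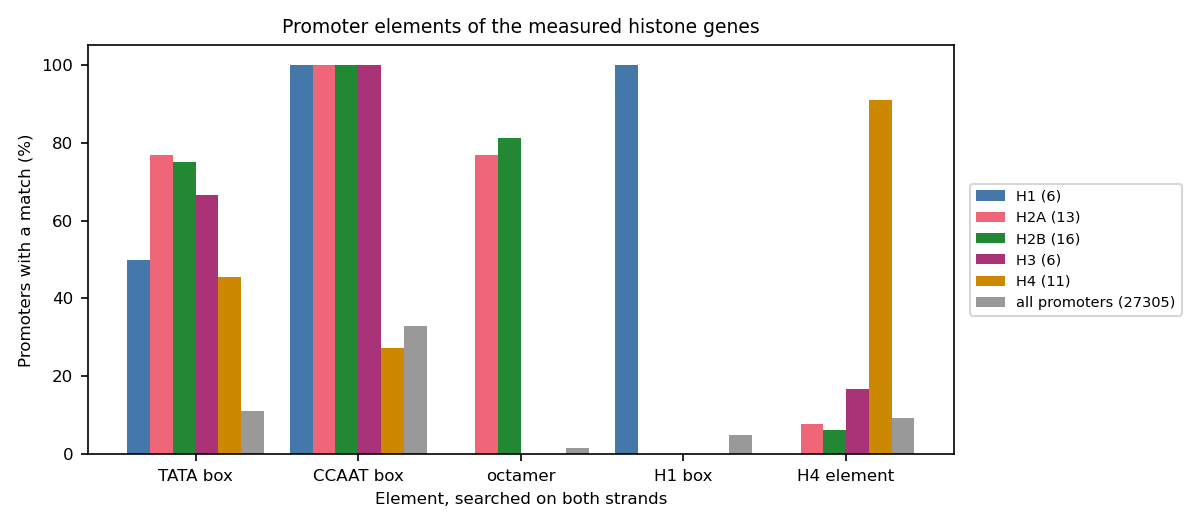
Percentage of promoters (vertical axis) with a match to each element (horizontal axis), in the 250 bases before the start of the gene, for the measured genes of each histone class (number of promoters in parentheses) and all promoters (grey). The H1 box is found in all 6 H1 promoters, the octamer in H2A and H2B promoters and the H4 element mainly in H4 promoters.

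Of the 57 histone genes, 8 were higher in CD47- EVs, none was lower and 49 did not pass. Over all genes 0.668% were higher and 0.0163% were lower. H1-4 and H3C11 had the largest differences, followed by H4C3, H4C13, H2AC21, H4C5, H2BC14 and H1-5, so each of the 5 classes held a gene that rose. The median difference was 0.21 over the 57 genes and 0.0029 over all genes. The difference was above 0 for 47 of the 57 genes (51.3% of all genes). The CD47- arrays all lay above the WT arrays for 27 histone genes (7.3% of all genes) and all below for 3 (5.53% of all genes). Before adjustment, p was under 0.05 for 26 genes in the higher and 2 in the lower direction (5.16% and 2.87% of all genes).
Most of these genes lost the call without 1 or more of the arrays. Without 1 array the differences lay between 0.38 and 0.45 for H1-5, 0.62 and 0.82 for H2AC21, and 0.48 and 0.64 for H2BC14. Those of H4C5 lay between 0.54 and 0.79 and those of H4C13 between 0.65 and 0.92. H1-4, H3C11 and H4C3 passed without any 1 of the 6 arrays. The number that passed was 3 without WT replicate 3 and 4 without CD47- replicate 2 or CD47- replicate 3. Fewer genes passed in all at these settings, with 0.288%, 0.418% and 0.315% of all genes higher. None passed in a per-gene test with unshared variance, which called 1 gene of 18417 (0.00543%). With each array shifted so that the olfactory receptor genes had the same center, 15 passed, beside 1.28% of all genes. That centering moved the median difference of all genes up by 0.06.

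**Figure D2:**
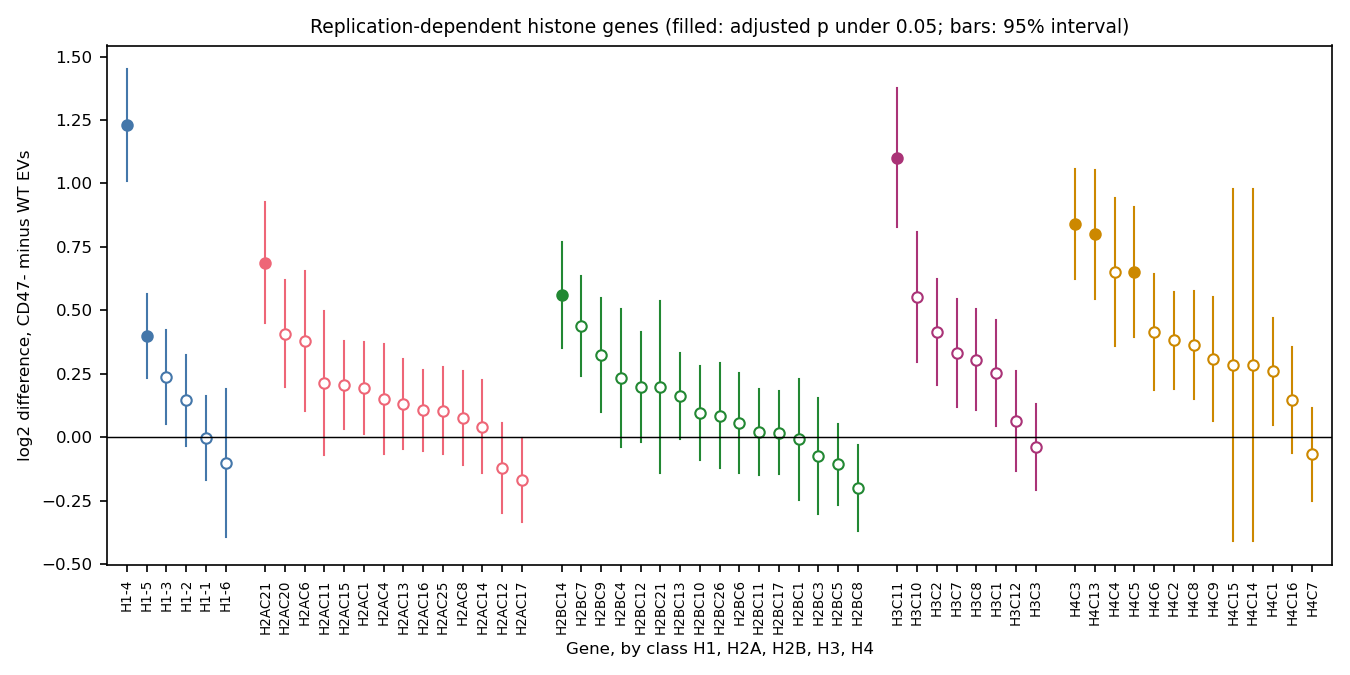
log2 difference between CD47- and WT EVs (vertical axis) for each of the 57 histone genes (horizontal axis), sorted within the classes H1, H2A, H2B, H3 and H4. Points are limma estimates with 95% intervals, and the 8 filled points passed at an adjusted p under 0.05. Most points of every class lie above 0, and H4C14 and H4C15, with identical values, have the widest intervals.

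Among the linker histones, 2 of 6 genes rose. H1-4 encodes histone H1.4, a major somatic form of H1. Its levels were 6.75, 6.85 and 6.66 in the WT arrays and 7.75, 8.09 and 8.10 in the CD47- arrays. All CD47- arrays lay far above all WT arrays. The difference was 1.23 (standard error 0.10, adjusted p = 1.59e-04 from limma), a 2.35-fold increase. H1-5, another somatic form, had levels of 5.03, 5.18 and 5.04 in WT EVs and 5.48, 5.45 and 5.51 in CD47- EVs. Its groups did not overlap and its difference was 0.40 (standard error 0.08, adjusted p = 0.0328). Its mean lay below the olfactory receptor median. H1-5 did not pass with the replicate number as a block (adjusted p = 0.0774), and it passed without 1 of the 6 arrays in a single case, WT replicate 2.
The somatic genes H1-2 and H1-3 had differences of 0.15 and 0.24, and H1-1 of -0.0036 (95% interval -0.17 to 0.16). None of these passed. H1-6, the linker histone gene of the testis, had a difference of -0.10 (95% interval -0.39 to 0.19). Its levels were 4.36, 4.46 and 3.95 in WT EVs and 4.31, 3.91 and 4.25 in CD47- EVs, and the groups overlapped. The classes differed in spread, and H1 had the widest, with a standard deviation of 0.48 between its 6 genes, largely from H1-4.

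In the H2A class, 1 of 14 genes rose. H2AC21 had levels of 6.53, 6.16 and 6.14 in WT EVs and 6.82, 7.04 and 7.04 in CD47- EVs. WT replicate 1 was higher than the other WT arrays and still below all CD47- arrays. The difference was 0.69 (standard error 0.11, adjusted p = 0.0113 from limma), a 1.61-fold increase, but H2AC21 did not pass without WT replicate 2 or 3 or CD47- replicate 2 or 3 (adjusted p from 0.0550 to 0.0891).
H2AC20 had levels of 5.57, 5.68 and 5.66 in WT EVs and 5.94, 6.27 and 5.93 in CD47- EVs. The groups did not overlap. Its difference of 0.41 did not pass (adjusted p = 0.105 from limma), though it passed after the centering on the olfactory receptor genes and among the genes above their median. The remaining H2A genes had differences between -0.17 for H2AC17 and 0.38 for H2AC6. H2AC17 had levels of 3.55, 3.43 and 3.38 in WT EVs and 3.30, 3.30 and 3.26 in CD47- EVs, with all CD47- arrays below all WT arrays and an adjusted p of 0.608. The class median was 0.14, with 12 of 14 genes above 0. H2AC1, a gene of the testis, had a difference of 0.19 and did not pass.

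The H2B class had the lowest median difference of the 5 classes, 0.09, with 12 of 16 genes above 0 and 1 that rose. H2BC14 had levels of 5.74, 5.90 and 5.58 in WT EVs and 6.18, 6.30 and 6.42 in CD47- EVs, without overlap. The difference was 0.56 (standard error 0.10, adjusted p = 0.0179 from limma), a 1.48-fold increase. It did not pass without WT replicate 1 or 3 or CD47- replicate 2 or 3 (adjusted p from 0.0613 to 0.105).
H2BC7 lay just outside the threshold, with a difference of 0.44 (adjusted p = 0.0526). It passed without WT replicate 1 and without CD47- replicate 1. H2BC9 had levels of 6.57, 6.25 and 6.45 in WT EVs and 6.73, 6.92 and 6.59 in CD47- EVs. The lowest CD47- array exceeded the highest WT array only slightly, and the difference of 0.32 did not pass (adjusted p = 0.304). H2BC21 had levels of 6.37, 5.95 and 5.66 in WT EVs and 6.15, 5.99 and 6.43 in CD47- EVs. Its groups overlapped widely, with a difference of 0.20 (95% interval -0.14 to 0.54). A probe set shared with H2BC18 and H2BP1 had a difference of 0.29, and one shared with H2BC19P and H2BC20P of 0.27. In both, all CD47- arrays lay above all WT arrays, but neither passed.
H2BC8 had the lowest difference of all 57 genes, -0.20 (adjusted p = 0.494 from limma). Its levels were 4.74, 4.70 and 4.62 in WT EVs and 4.51, 4.40 and 4.56 in CD47- EVs, so all CD47- arrays were below all WT arrays. The same held for H2BC5, with a difference of -0.11 (adjusted p = 0.812). H2BC1, the H2B gene of the testis, had a difference of -0.0077 (95% interval -0.24 to 0.23).

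In the H3 class, 1 of 8 genes rose and the class median was 0.32. H3C11 had levels of 6.70, 6.26 and 6.16 in WT EVs and 7.32, 7.51 and 7.59 in CD47- EVs. The WT arrays were more spread than the CD47- arrays, and the groups stood well apart. The difference was 1.10 (standard error 0.13, adjusted p = 9.97e-04 from limma), a 2.15-fold increase. Another probe set, shared by H3C11 and H3C6, gave a difference of -0.15 with a mean of 3.21, so the increase rests on 1 probe set of H3C11.
H3C10 had levels of 4.24, 4.31 and 3.79 in WT EVs and 4.63, 4.70 and 4.67 in CD47- EVs. WT replicate 3 was lowest and the CD47- arrays were close together. The difference of 0.55 did not pass (adjusted p = 0.0628), though it passed without WT replicate 2. H3C7 had levels of 6.91, 6.80 and 6.51 in WT EVs and 7.11, 7.05 and 7.06 in CD47- EVs, without overlap, and a difference of 0.33 (adjusted p = 0.250). H3C2, H3C8 and H3C1 had differences of 0.42, 0.31 and 0.25 and did not pass, though H3C2 passed without CD47- replicate 1. H3C3 had a difference of -0.04 (95% interval -0.21 to 0.13), which was 0.02 after the centering on the olfactory receptor genes.

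The H4 class had the highest median difference of the classes, 0.36, and 3 of its 13 genes rose. H4C3 had levels of 6.40, 6.11 and 6.23 in WT EVs and 6.90, 7.19 and 7.16 in CD47- EVs. All CD47- arrays were above all WT arrays. The difference was 0.84 (standard error 0.10, adjusted p = 0.00128 from limma), a 1.79-fold increase. H4C13 had levels of 5.07, 5.01 and 4.94 in WT EVs and 5.57, 5.74 and 6.11 in CD47- EVs. The WT arrays were close together and CD47- replicate 3 was highest. The difference was 0.80 (standard error 0.12, adjusted p = 0.00637), and the call was lost when WT replicate 3 was left out (adjusted p = 0.0660). Its mean lay below the olfactory receptor median.
H4C5 had levels of 5.74, 5.97 and 5.78 in WT EVs and 6.20, 6.71 and 6.53 in CD47- EVs. The groups did not overlap, and the difference was 0.65 (standard error 0.12, adjusted p = 0.0241 from limma). H4C5 did not pass without WT replicate 1 or 3 or CD47- replicate 2 or 3 (adjusted p from 0.0923 to 0.154). H4C4, with a difference of 0.65 as well, did not pass (adjusted p = 0.0542), though it passed without CD47- replicate 1. H4C8 had levels of 5.86, 5.73 and 5.75 in WT EVs and 6.15, 5.94 and 6.33 in CD47- EVs, and its difference of 0.36 did not pass although the groups did not overlap.
H4C14 and H4C15, copies of a gene whose probe sets gave identical values, had levels of 5.21, 5.46 and 4.93 in WT EVs and 4.57, 6.36 and 5.52 in CD47- EVs. CD47- replicate 1 was the lowest of the 6 arrays and CD47- replicate 2 the highest. The difference was 0.28 with a 95% interval from -0.41 to 0.98, and it was 0.74 without CD47- replicate 1 and -0.15 without CD47- replicate 2. H4C7 had a difference of -0.07 (95% interval -0.25 to 0.12), and the other H4 genes lay between 0.15 and 0.42.

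**Figure D3:**
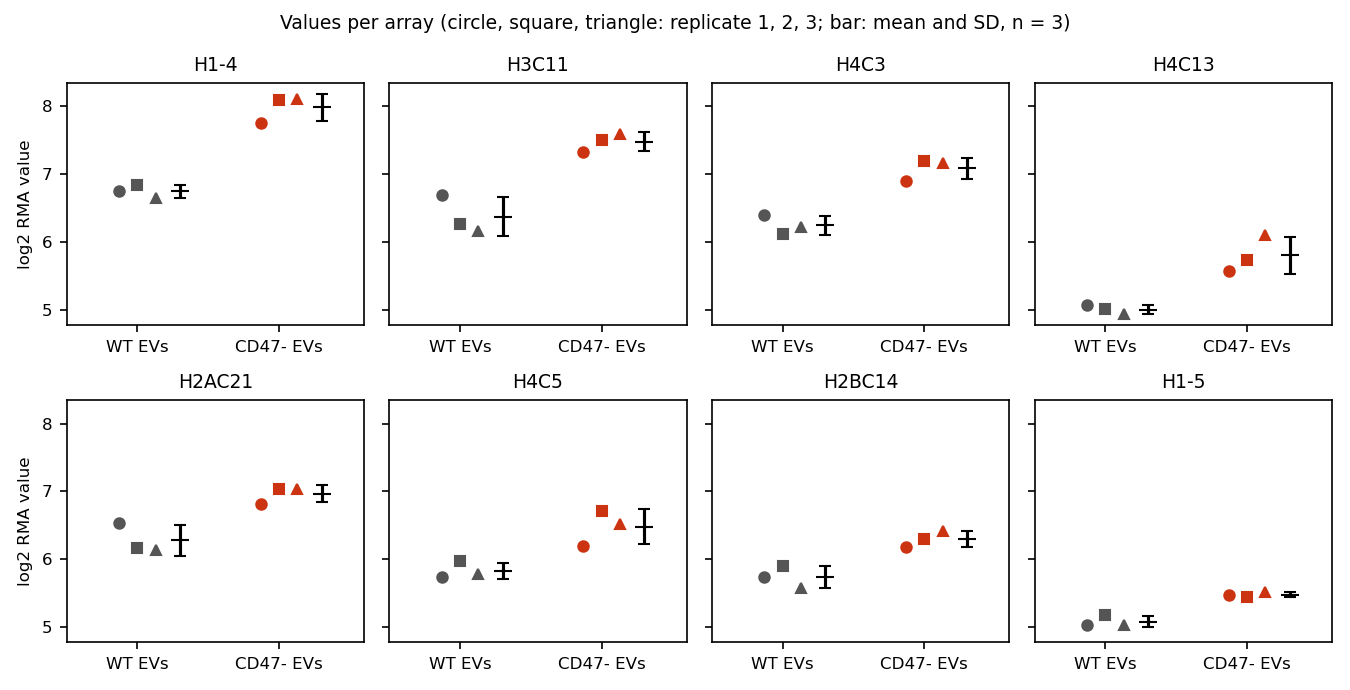
log2 RMA values (vertical axis) of the 8 histone genes that passed, in 3 WT (grey) and 3 CD47- (red) arrays, with the mean and SD of each group. The groups do not overlap for any of these genes, and the distance is largest for H1-4 and H3C11.

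The arrays of a group did not behave alike. To set genes side by side, each value was taken relative to the WT mean of its gene, and the median was formed over the genes of a class in each array. For all 57 genes these medians were 0.05, 0.01 and -0.06 in the WT arrays and 0.16, 0.17 and 0.26 in the CD47- arrays. WT replicate 3 was lowest in each class, and it gave the lowest of the 6 values for 25 of the 57 genes. For all 18417 genes it was also lowest, with a median of -0.03, and the other arrays lay between -0.0012 and 0.02.
The H4 medians were 0.30, 0.60 and 0.39 in CD47- replicates 1 to 3. Those of H3 were 0.26, 0.31 and 0.39. Both classes were above all of their WT arrays. The H2A and H1 medians also separated the groups, with 0.12 to 0.14 and 0.15 to 0.23 in the CD47- arrays. H2B did not, since its median was 0.05 in WT replicate 2 and 0.03 in CD47- replicate 2. Differences between classes were not tested.

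**Figure D4:**
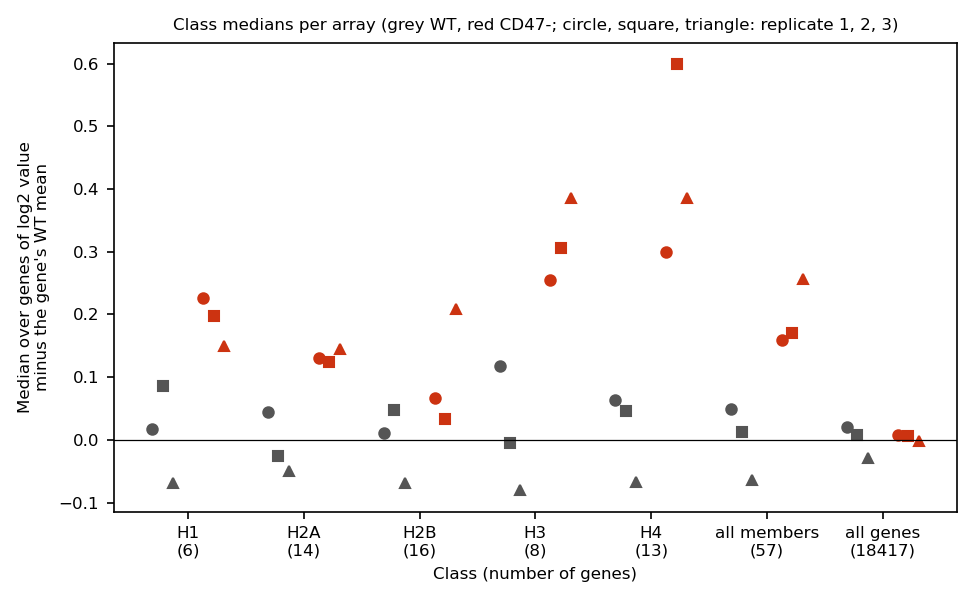
Median over the genes of each class (horizontal axis, number of genes in parentheses) of the log2 value minus the WT mean of the same gene (vertical axis), for each WT (grey) and CD47- (red) array. H3 and H4 lie highest in the CD47- arrays, H2B overlaps, and all genes lie near 0.

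The levels of the histone genes in WT EVs and their differences are set side by side here as a description. The olfactory receptor median rests on all 6 arrays, whereas the levels rest on the WT arrays alone. Of the 11 histone genes with a WT mean above the olfactory receptor median, 6 passed and the median difference was 0.56. Of the 46 at or below it, 2 passed and the median was 0.15. Among all genes with a WT mean above that median, 1.37% passed as higher and the median difference was 0.01. Among all genes at or below it, 0.214% passed as higher and the median difference was -0.0012. Across the 57 genes the WT mean and the difference correlated with a Pearson r of 0.62 (Spearman rho 0.60), compared with 0.10 (rho 0.06) across all 18417 genes. The WT values enter both the level and the difference, so these quantities are coupled, and genes of the same arrays are not independent replicates. With the mean of all 6 arrays as the level r was 0.70, but this mean also holds the CD47- values. H2AC6, H4C4 and H4C6 lay above the olfactory receptor median by that mean and below it in WT EVs. The use of the WT mean was chosen after seeing the data. Probes differ in how strongly they bind, so a level does not order the genes by abundance.

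**Figure D5:**
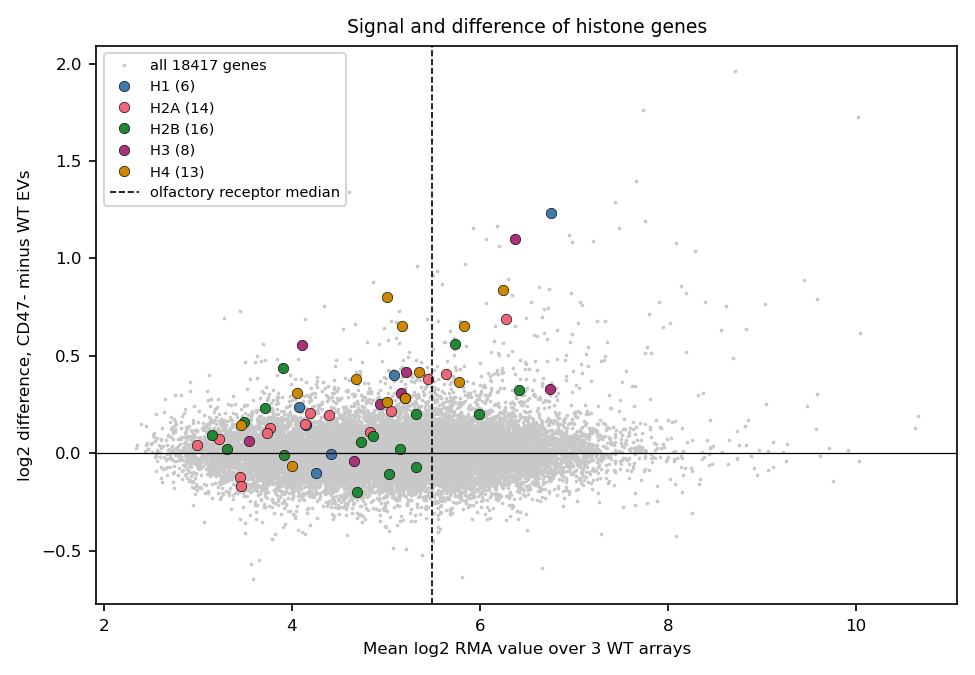
The log2 RMA level averaged over the 3 WT arrays (horizontal axis) and the log2 difference, CD47- minus WT (vertical axis), of all 18417 genes (grey) and the histone genes by class (number in parentheses). The dashed line is the median of the olfactory receptor genes over all arrays, WT and CD47-, and 6 of the 8 histone genes that passed lie to its right.

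The 20 probe sets shared by several genes with a histone gene among them gave 17 separate measurements. Of these, 15 were above 0 (51.3% of all genes). The CD47- arrays all lay above the WT arrays in 13 (7.3% of all genes). In a fit with all genes 4 of them passed as higher, all 4 listed with histone genes alone. In the main fit 0.668% of all genes were higher. The probe set of H4C11 and H4C12 with the larger difference had levels of 4.78, 4.70 and 4.99 in WT EVs and 5.23, 5.99 and 5.77 in CD47- EVs, a difference of 0.84 (adjusted p = 0.0290 from limma). Another probe set of these genes had a difference of 0.52 and passed too.
H3C13, H3C14 and H3C15, which share their probe sets, had 3 separate measurements with differences of 0.37, 0.38 and 0.50, of which the last passed (adjusted p = 0.0176). The probe set shared by H2BC5, H2BC12, H2BC17 and H2BC12L had levels of 6.80, 6.73 and 6.77 in WT EVs and 7.18, 7.15 and 7.17 in CD47- EVs. Its arrays were very close within each group, and the difference of 0.40 passed (adjusted p = 0.0221). The probe sets listed for H2BC5, H2BC12 and H2BC17 alone had differences of -0.11, 0.20 and 0.02, so the shared signal cannot be assigned to any of them. The probe set of H2AC18, H2AC19, H2AC20 and H2AC21 had a difference of 0.43, beside 0.69 and 0.41 for those of H2AC21 and H2AC20 alone. The shared probe set of H4C14 and H4C15 gave 0.01 with a mean of 3.95.

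By position in RefSeq, 49 of the 57 genes lie on chromosome 6, 7 on chromosome 1 and 1, H4C16, on chromosome 12. Of the genes that rose, 7 lie on chromosome 6 and 1, H2AC21, on chromosome 1. The median difference was 0.21 on chromosome 6 and 0.28 on chromosome 1. Of 12 pairs of histone genes that start within 500 bases of each other and run in opposite directions, 9 had both genes measured. In 6 pairs both differences were above 0, in 3 they had opposite signs, and 1 pair held a gene that rose. That pair was H2BC14 (0.56) with H2AC14 (0.04), whose starts lie 245 bases apart. H2AC14 had levels of 3.04, 3.00 and 2.94 in WT EVs and 2.89, 3.14 and 3.07 in CD47- EVs, and these overlapped. The mean of H2AC14 lay far below the olfactory receptor median, and differences within pairs were not tested.

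Variant histones are made outside S phase as well, from genes with introns and polyadenylated mRNAs in most cases. Of 16 measured variant histone genes none was higher or lower with limma. Before adjustment, p was under 0.05 for 3 higher genes and 1 lower gene (5.16% and 2.87% of all genes). With unshared variance none passed, and 1 gene in each direction had such an unadjusted p, compared with 4.32% of all genes as higher and 2.76% as lower in that test. The median difference was 0.02, with 9 of 16 above 0. Those below 0 were H1-7, H1-8, H1-9P, H2AP, H2BW1, H2BW2 and H3-4. All others, among them H1-10 (0.19), H2AJ (0.11), MACROH2A2 (0.06) and H2AZ2 (0.03), were above 0. The list was set by symbol, and whether each gene has introns, gives a polyadenylated mRNA or is a pseudogene was not checked. The median thus mixes unlike genes. H2AZ1, which encodes the variant H2A.Z, had levels of 3.68, 3.75 and 3.60 in WT EVs and 3.82, 3.77 and 4.86 in CD47- EVs. The difference of 0.47 (adjusted p = 0.624) came largely from CD47- replicate 3, and it was 0.12 without this array. H2AX, the variant that is phosphorylated at DNA breaks, had levels of 6.27, 6.25 and 6.16 in WT EVs and 6.33, 6.24 and 6.22 in CD47- EVs. These overlapped, with a difference of 0.04 (95% interval -0.13 to 0.20). H3-3B, which encodes the variant H3.3, had a difference of 0.27 (adjusted p = 0.599), and H3-3A had only probe sets shared with a pseudogene. MACROH2A1, which encodes a variant with a large macro domain, had a difference of 0.33 (adjusted p = 0.328) and H2BW2 of -0.25 (adjusted p = 0.230). Whether replication-dependent and variant genes differ in their change was not tested.
Of 39 measured genes for transcription, processing, translation and decay of histone mRNAs, none passed with limma. Before adjustment, p was under 0.05 for 5 of 39 genes, all higher (5.16% of all genes). With unshared variance none passed and 3 of 39 had such an unadjusted p, all higher (4.32% of all genes). The median difference was 0.06. SLBP had levels of 5.08, 5.14 and 4.98 in WT EVs and 5.29, 5.01 and 5.25 in CD47- EVs. The groups overlapped, and the difference was 0.12 (95% interval -0.08 to 0.31). SNRPB and SNRPF, which encode proteins of the ring that U7 shares with spliceosomal snRNPs, had differences of 0.34 and 0.24 (adjusted p = 0.170 and 0.361). SNRPB passed after the centering on the olfactory receptor genes.
Of 26 histone chaperone genes, whose products carry histones to and from DNA, none passed with limma. Before adjustment, p was under 0.05 for 9 of 26 genes, all higher (5.16% of all genes). With unshared variance none passed and 7 of 26 had such an unadjusted p, all higher (4.32% of all genes). The median difference was 0.11, with 20 of 26 above 0. NAP1L1, which encodes a chaperone of H2A and H2B, had levels of 4.68, 5.06 and 4.27 in WT EVs and 5.29, 5.41 and 5.31 in CD47- EVs. The WT arrays were spread and lay below the CD47- arrays, and the difference of 0.66 did not pass (adjusted p = 0.0880). It passed without WT replicate 2, with the replicate number as a block and after the centering. ANP32E, which removes H2A.Z from chromatin, had a difference of 0.28 (adjusted p = 0.234).
None of the lists of T cell markers, processing genes or chaperone genes held a gene that passed, but the summed levels of each did not overlap between the groups. Summed over the 11 marker genes, the log2 levels lay between 65.4 and 66.9 in the WT arrays and between 67.3 and 67.8 in the CD47- arrays. Their median difference was 0.07, and 9 of 11 were above 0. As higher, 3 had an unadjusted p under 0.05 (5.16% of all genes). With unshared variance 2 had such a p (4.32% of all genes). The sums lay between 184.7 and 185.6 in the WT and 186.4 and 187.8 in the CD47- arrays for the processing genes. For the chaperone genes they lay between 140.2 and 143.5 and between 144.7 and 145.6. The part of these shifts in the result was not tested. The sums of the B, myeloid, erythroid and epithelial markers overlapped between the groups. So did those of the measured variant histone genes, with 91.7 to 92.9 in the WT and 91.9 to 94.6 in the CD47- arrays. How often sums over other sets of genes separate the groups was not tested.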

How the data were processed

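RNA of 3 WT and 3 CD47- EV preparations was measured on whole-transcript Affymetrix human gene arrays, grouped by the submitters' labels. Nothing says that the preparations came from separate cultures, so p-values measure the spread between these samples, which may be technical. The authors' deposited values are log2 values from RMA in Affymetrix Expression Console, per the submitters' processing notes. The sources used here do not give versions or a genome build. In RMA, arrays are corrected for background, brought to a common distribution and summarized by probe set, which compresses the differences of dim probe sets. The number of arrays limits the precision.
Gene symbols came from the annotation of the platform. Of 33297 probe sets, 19460 had 1 symbol, 1754 several and 12083 none. Probe sets with 1 symbol gave 18417 genes, each taken with its brightest probe set. Tests used limma 3.58.1 (lmFit, eBayes, two-sided) in R 4.3.3, with no filter and Benjamini-Hochberg adjustment over all genes. The test was also run on simulated data with known changes. Intervals are 95% intervals of limma. Unshared variance means the same test without eBayes.
The genes and lists were chosen with earlier results of these data known. Named were genes that passed, the 2 brightest genes of each class and those with its highest and lowest difference, members of the other lists that passed or had the 2 smallest p, and SLBP, H2AX, H2AZ1, H3-3A and H3-3B. Other genes, among them H2BC7, H3C10, H4C4, H4C14 and H2BC5, were named after their values were seen. Of the lists, 16 of 23 variant, 39 of 41 mRNA processing and 26 of 26 chaperone genes were measured, and 27 of 31 marker genes. Alternatives were the replicate number as a block, another variance model, array weights, a further quantile normalization, centering on the olfactory receptor genes, a filter on dim genes, other uses of probe sets, unshared variance and leaving out each array.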

Additional observations from a re-analysis of the deposited data

How the results depend on the processing

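The number of histone genes that rose (8) became 15 with arrays centered by the olfactory receptor genes and 0 with unshared variance. It lay between 3 and 10 when 1 array was left out. It was 7 with the replicate number as a block, and 8 to 12 under the other alternatives, the 12 with 4 shared probe sets counted. Over all genes, deviations of same-numbered arrays correlated with r = 0.02, -0.02 and -0.04, and 2 of 6 arrays correlated best with their own number. These values show no sign of pairs, but correlations over all genes, many of them dim, cannot exclude them. The median difference of the histone genes was 0.49 over the 14 genes whose mean of all arrays, CD47- included, lay above the olfactory receptor median, 0.56 over the 11 above it by the WT mean (chosen after seeing the data), and 0.15 to 0.23 without 1 array. Among processing genes, 1 passed after the centering. Among chaperone genes, 1 passed after the centering and 1 with the block, and 0 to 1 without 1 array. H1-6 lay between -0.2523 and 0.0208 without 1 array, with 1.00e-04 without WT replicate 2. H3C3 lay between -0.0697 and 0.0218 without 1 array and was 0.0182 after the centering. Of 420 alternative values for 27 named genes, 383 kept their direction and their side of the threshold, 27 lost the call, 6 gained it and 4 changed sign. Only the 8 genes that passed could lose the call. Most named genes did not pass and kept their side by staying uncalled. The cause of these changes was not tested. Signal over background limits what dim probe sets can show.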
